A study of Mus musculus with 8 samples.

Results

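The genes examined were 10 core members of the Notch pathway, comprising the receptors Notch1, Notch2 and Notch3, the ligands Dll1, Dll3 and Jag1, the targets Hes1, Hes5 and Hey1, and the nuclear factor Rbpj. They are 10 of the 18194 genes that had at least 1 probe set annotated with that gene alone. Each was read at every such probe set, which gave 18 of the 45101 probe sets of an Affymetrix mouse genome array. Neural stem cells (NSCs), from adult mouse brain per the series' design text, were grown as secondary neurospheres, floating clusters of dividing stem and progenitor cells. They were kept for 3 or 7 days either in MHM + GF, the hormone-supplemented medium MHM with EGF and FGF-2, or in rcCHIL3, which was medium conditioned by the human kidney line HEK293T after transfection with Chil3. CHIL3, which the labels call ECF-L, is a secreted chitinase-like protein also known as Ym1. The 4 groups were MHM + GF at 3 days, MHM + GF at 7 days, rcCHIL3 at 3 days and rcCHIL3 at 7 days, with 2 arrays each, from independent experiments. The methods describe neurospheres from embryonic as well as adult mice without saying which were used for the arrays, and the labels name no genotype or strain. No array measured medium conditioned by cells without Chil3, and EGF and FGF-2 are named only for the control medium, so the effect of CHIL3, of the conditioning cells and of the missing growth factors cannot be told apart.

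Notch signaling passes between touching cells. A ligand such as DLL1 or JAG1 on one cell binds a Notch receptor on its neighbor, the receptor is cut by ADAM proteases and by γ-secretase, and its freed intracellular part joins RBPJ in the nucleus to switch on repressors of the Hes and Hey families. In the brain this pathway is known for holding NSCs undifferentiated and quiescent, and the Hes and Hey proteins repress the proneural factors that push progenitors toward neurons.

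Each deposited array was rescaled to an average signal of 100, and signals below are on that scale. A probe set was tested when it reached a signal of 50 on at least 2 of the 8 arrays, which 15679 did, among them 14 of the 18 Notch probe sets and at least 1 for each of the 10 genes. Changes are differences of group means on the scale log2(signal + 20), with a standard error (SE) and a p-value adjusted over all 15679 probe sets. Fold differences are ratios of mean signals. Where a gene had several tested probe sets, the brightest stood for the gene. Signals of different probe sets depend on their probes, so levels were compared between groups and not between genes. Arrays of the same group correlated at 0.992 to 0.994, and no array stood apart.

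Promoter sequence was taken from RefSeq on GRCm38.p6 for the 250 bases before the start site, and 8 of the 10 genes had a window. Windows are shown for Hes5, the target with the largest change, for Rbpj, the DNA-binding factor of the pathway, and for the ligands, which were lower together in rcCHIL3. Capitals in the first 2 windows mark TGGGAA or its reverse complement TTCCCA, the core of the sequence that RBPJ binds. The Hes5 window lies on the plus strand at chr4:154960673-154960922 and the Rbpj window on the plus strand at chr5:53590096-53590345. Both lie inside the annotated span of their gene, which begins at 154960626 for Hes5 and at 53555779 for Rbpj. They thus precede a start site within the gene.
Hes5: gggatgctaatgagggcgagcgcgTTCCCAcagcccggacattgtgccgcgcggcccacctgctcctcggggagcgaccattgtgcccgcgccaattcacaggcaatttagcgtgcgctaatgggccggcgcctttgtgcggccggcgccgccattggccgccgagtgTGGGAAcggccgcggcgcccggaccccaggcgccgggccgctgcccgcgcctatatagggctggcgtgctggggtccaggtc
Rbpj: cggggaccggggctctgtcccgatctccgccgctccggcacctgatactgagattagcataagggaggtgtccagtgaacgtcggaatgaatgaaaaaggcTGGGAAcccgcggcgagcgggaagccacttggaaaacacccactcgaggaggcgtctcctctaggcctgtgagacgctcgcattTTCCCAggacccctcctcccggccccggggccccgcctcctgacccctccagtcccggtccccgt
In the Hes5 window the matches began 226 and 82 bases before the start site, and in the Rbpj window shown 149 and 65 bases before its start site. A second Rbpj window, before another start site, lies at chr5:53590236-53590485 and overlaps the one shown. It had only 1 match, TTCCCA, which began 205 bases before that start. On either strand TGGGAA was present in 21.6% of 32851 mouse promoter windows of this length, and at least 2 times in 2.77%. No other gene of the 8 had a match.

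The ligand windows are shown with CAGCTG in capitals, a palindromic E-box that basic helix-loop-helix factors can bind, which was chosen after these sequences had been seen. They lie on the minus strand, Dll1 at chr17:15376933-15377182, Dll3 at chr7:28301786-28302035 and Jag1 at chr2:137116521-137116770.
Dll1: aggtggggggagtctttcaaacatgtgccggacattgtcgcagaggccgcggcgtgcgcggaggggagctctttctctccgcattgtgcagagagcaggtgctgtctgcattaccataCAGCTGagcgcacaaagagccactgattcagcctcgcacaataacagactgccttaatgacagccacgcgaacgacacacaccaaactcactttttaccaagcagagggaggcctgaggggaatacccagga
Dll3: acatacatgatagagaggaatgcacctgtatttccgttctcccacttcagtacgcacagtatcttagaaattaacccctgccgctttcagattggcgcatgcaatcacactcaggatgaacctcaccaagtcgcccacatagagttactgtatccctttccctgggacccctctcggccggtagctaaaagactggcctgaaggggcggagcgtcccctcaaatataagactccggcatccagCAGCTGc
Jag1: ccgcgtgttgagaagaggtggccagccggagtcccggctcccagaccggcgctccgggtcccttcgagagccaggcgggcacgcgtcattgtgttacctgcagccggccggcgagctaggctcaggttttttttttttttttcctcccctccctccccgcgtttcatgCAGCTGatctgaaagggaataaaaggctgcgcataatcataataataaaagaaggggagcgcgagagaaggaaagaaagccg
The match began 132 bases before the start in Dll1, 7 in Dll3 and 82 in Jag1. CAGCTG was present in 13.0% of all windows, in these 3 of the 8 Notch genes with a window, and not in a second window of Dll1. A match describes the letters of a window and is neither a measured binding site nor a cause of the values below.

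The 3 ligands and the target Hes1 were lower in rcCHIL3 than in MHM + GF at both days, and Hey1 was higher at both days. Hes5 was lower at 7 days and did not pass the test at 3 days. For Jag1 and Hes1 only arrays in MHM + GF reached the signal of 50 needed for testing, so the sizes of their changes are uncertain. At 3 days the calls of Hey1 and Rbpj as higher in rcCHIL3 were lost in several alternatives. At 3 days, 9 of the 14 tested Notch probe sets passed the threshold of adjusted p under 0.05, 3 higher and 6 lower in rcCHIL3, and over all tested probe sets 50.2% passed, 27.7% higher and 22.5% lower. Counted by gene, at its brightest probe set, this was 8 of 10 genes, 3 higher and 5 lower, with a median log2 change of -0.49 against 0.03 over all tested probe sets. At 7 days, 10 of 14 Notch probe sets passed, 2 higher and 8 lower, beside 44.0% of all tested probe sets, 21.3% higher and 22.7% lower. By gene this was again 8 of 10, 1 higher and 7 lower, with a median of -0.66 against -0.01. These arrays measured whole neurospheres, in which fewer cells of a type and less RNA per cell cannot be told apart.

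**Figure D1:**
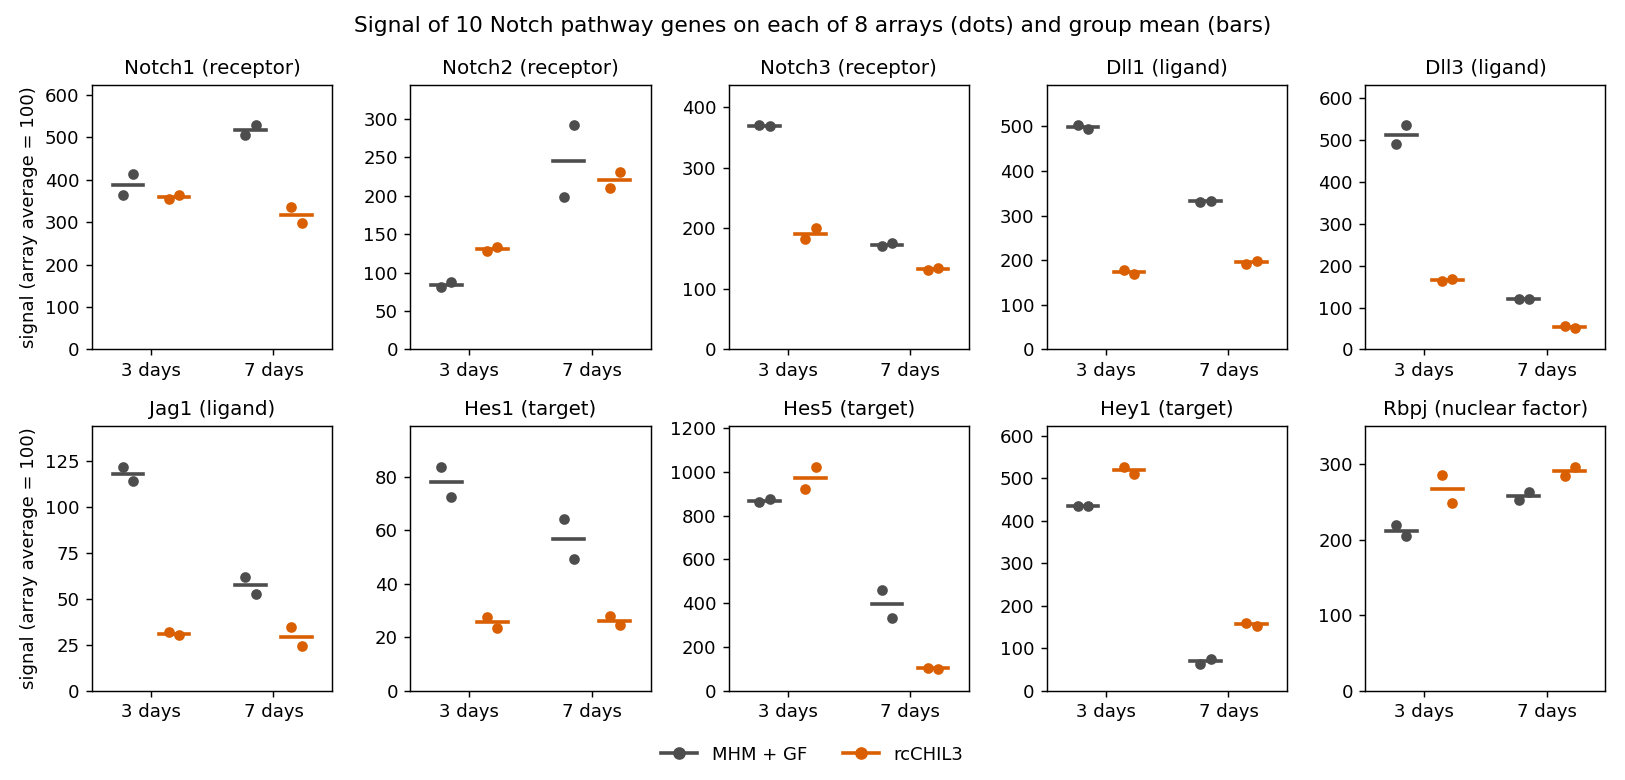
Signal of each of the 10 Notch pathway genes at its brightest tested probe set (y axis, rescaled so that each array averages 100) on each of the 8 arrays, by day (x axis). Dots are single arrays, bars the mean of the 2 arrays of a group, gray MHM + GF and orange rcCHIL3. The 4 arrays in rcCHIL3 lay below the 4 in MHM + GF for Dll1, Jag1 and Hes1, and Hes5 had its lowest signals in rcCHIL3 at 7 days.

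DLL1 is the ligand through which committed progenitors signal to neighboring stem cells. Its signal was 502.7 and 494.1 in MHM + GF at 3 days, 329.6 and 333.9 in MHM + GF at 7 days, 178.6 and 169.5 in rcCHIL3 at 3 days, and 192.3 and 198.1 in rcCHIL3 at 7 days. The arrays of each group lay close together and all 4 in rcCHIL3 lay below all 4 in MHM + GF. Dll1 was 2.86-fold lower in rcCHIL3 at 3 days (log2 change -1.42, SE 0.07, adjusted p = 1.7e-08) and 1.70-fold lower at 7 days (-0.71, SE 0.07, adjusted p = 1.1e-05).

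DLL3 is a divergent Delta protein that mostly stays inside the cell and is known from committed neural and oligodendrocyte progenitors. Dll3 gave 490.5 and 535.1 in MHM + GF at 3 days, 121.0 and 121.2 in MHM + GF at 7 days, 164.4 and 168.4 in rcCHIL3 at 3 days, and 56.1 and 52.3 in rcCHIL3 at 7 days. The groups did not overlap, with MHM + GF at 3 days far above the others and rcCHIL3 at 7 days the lowest. Dll3 was 3.08-fold lower in rcCHIL3 at 3 days (log2 change -1.51, SE 0.08, adjusted p = 3.8e-08) and 2.24-fold lower at 7 days (-0.93, SE 0.08, adjusted p = 4.8e-06). Of the 4 oligodendrocyte progenitor markers Pdgfra, Cspg4, Sox10 and Olig1, 4 were over the signal limit, and their summed signal was 2257.7 to 2312.9, 942.9 to 969.1, 1728.1 to 1772.2 and 859.2 to 859.9 in the same order of groups. Most of that sum was Olig1 (mean signals 1600, 605, 1040 and 478), which was lower in rcCHIL3 at both days (log2 changes -0.61 and -0.33). Pdgfra was lower in rcCHIL3 at 3 days (-0.27, adjusted p = 0.041), with -0.21 at 7 days (adjusted p = 0.11). Sox10 was higher in rcCHIL3 at 3 days (0.61, adjusted p = 0.00027), and Cspg4 was lower at 3 days (-0.83) and higher at 7 days (0.42, adjusted p = 0.0028). The part of these cells in the Dll3 values was not tested.

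JAG1 is a Serrate-type ligand found on stem cells and their niche. At its 1 tested probe set Jag1 gave 122.0 and 114.1 in MHM + GF at 3 days, 61.8 and 52.7 at 7 days, 31.8 and 30.3 in rcCHIL3 at 3 days, and 34.5 and 24.4 at 7 days. All 4 arrays in rcCHIL3 were below the signal limit of 50 and below all 4 in MHM + GF. This probe set was thus tested only through its arrays in MHM + GF, and the sizes of its changes are uncertain. Jag1 was 3.80-fold lower in rcCHIL3 at 3 days (log2 change -1.43, SE 0.12, adjusted p = 1.4e-06) and 1.94-fold lower at 7 days (-0.65, SE 0.12, adjusted p = 0.001). In the methods' t-test, the unadjusted p of the 7-day difference was 0.063. Jag1 had 2 further probe sets that missed the signal limit, with signals of 6.8 to 25.7 and of 5.4 to 9.1 over the 8 arrays. The former was lower in rcCHIL3 at 3 days in a fit of all probe sets (log2 change -0.62, adjusted p = 0.0032).

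NOTCH1 is the receptor that holds active and transit-amplifying progenitors in the neurogenic niche. At its brightest probe set, 1418634_at, Notch1 gave 364.5 and 412.7 in MHM + GF at 3 days, 505.5 and 528.4 at 7 days, 353.8 and 364.7 in rcCHIL3 at 3 days, and 336.6 and 298.7 at 7 days. The media overlapped at 3 days and stood apart at 7 days, when MHM + GF was higher. Notch1 was 1.63-fold lower in rcCHIL3 at 7 days (log2 change -0.67, SE 0.08, adjusted p = 6.1e-05), and the change at 3 days was -0.11 (SE 0.08, adjusted p = 0.3).

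The second Notch1 probe set, 1418633_at, differed from the first. It gave 118.8 and 126.4 in MHM + GF at 3 days, 82.0 and 60.3 at 7 days, 86.6 and 82.9 in rcCHIL3 at 3 days, and 64.9 and 57.4 at 7 days. Here MHM + GF at 3 days was the highest group and the media overlapped at 7 days. The change in rcCHIL3 was -0.44 at 3 days (SE 0.12, adjusted p = 0.0078; 0.052 without the second array of rcCHIL3 at 3 days) and -0.16 at 7 days (SE 0.12, adjusted p = 0.29). With the mean of both probe sets standing for the gene, Notch1 was lower in rcCHIL3 at 3 days as well (-0.27, adjusted p = 0.01).

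NOTCH2 is the receptor associated with NSC quiescence. Notch2 gave 80.8 and 87.1 in MHM + GF at 3 days, 198.8 and 291.7 at 7 days, 128.4 and 133.0 in rcCHIL3 at 3 days, and 209.7 and 230.9 at 7 days. All 4 arrays at 7 days were above all 4 at 3 days, and the arrays of MHM + GF at 7 days lay on either side of those of rcCHIL3. Notch2 was 1.56-fold higher in rcCHIL3 at 3 days (log2 change 0.54, SE 0.13, adjusted p = 0.0062), and the change at 7 days was -0.12 (SE 0.13, adjusted p = 0.49). That change at 7 days was -0.38 (adjusted p = 0.015) without the first array of MHM + GF at 7 days and 0.13 (adjusted p = 0.35) without the second. Another Notch2 probe set, with signals of 3.0 to 9.8, missed the signal limit and passed the threshold in no comparison in the fit of all probe sets.

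NOTCH3 is a receptor of mural cells and of quiescent NSCs. Notch3 gave 370.0 and 368.4 in MHM + GF at 3 days, 170.1 and 174.9 at 7 days, 181.6 and 200.4 in rcCHIL3 at 3 days, and 131.1 and 134.1 at 7 days. MHM + GF at 3 days was the highest group and rcCHIL3 at 7 days the lowest, with no overlap between the media at either day. Notch3 was 1.93-fold lower in rcCHIL3 at 3 days (log2 change -0.88, SE 0.07, adjusted p = 1.9e-06) and 1.30-fold lower at 7 days (-0.33, SE 0.07, adjusted p = 0.004; 0.17 on the deposited scale). The 5 mural markers Pdgfrb, Rgs5, Acta2, Cspg4 and Kcnj8, of which 4 were over the signal limit, had summed signals of 227.2 to 249.6 in MHM + GF at 3 days, 502.4 to 553.1 at 7 days, 250.5 to 252.4 in rcCHIL3 at 3 days and 188.8 to 189.4 at 7 days. The mural markers peaked in different groups, Pdgfrb (199) and Rgs5 (232) in MHM + GF at 7 days, Acta2 (114) in rcCHIL3 at 3 days and Cspg4 (148), which also marks oligodendrocyte progenitors, in MHM + GF at 3 days, as Notch3 did. Their part in the Notch3 values was not tested. Another Notch3 probe set, with signals of 14.3 to 52.0, missed the signal limit and was also lower in rcCHIL3 at 3 days in the fit of all probe sets (-0.73, adjusted p = 0.0027).

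**Figure D2:**
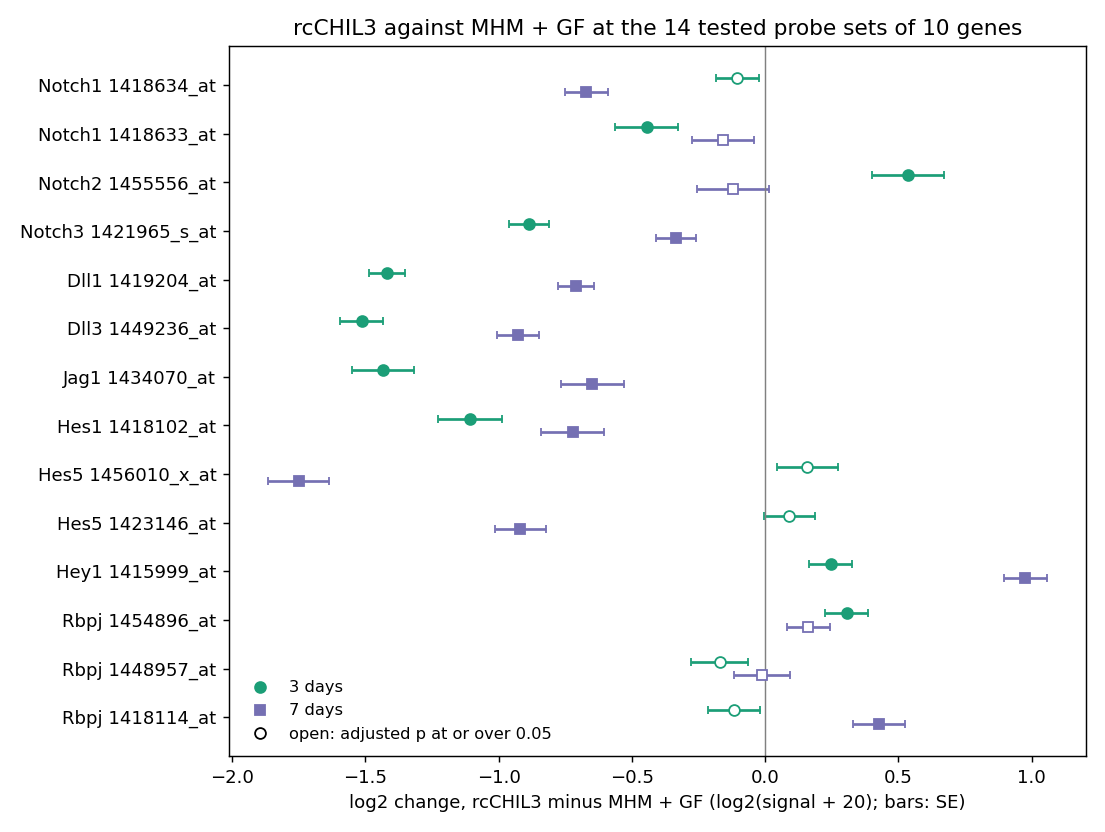
log2 change between rcCHIL3 and MHM + GF (x axis, on log2(signal + 20)) at each of the 14 tested probe sets of the 10 genes (y axis), at 3 days (green circles) and 7 days (purple squares). Bars are 1 SE, filled symbols have an adjusted p under 0.05, and values left of 0 are lower in rcCHIL3. The 3 ligands, Notch3 and Hes1 lie left of 0 at both days, Hey1 lies right of it at both days, and Hes5 lies near 0 at 3 days and far left at 7 days.

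HES1 is a repressor whose oscillating expression is known to keep progenitors dividing. Hes1 gave 83.8 and 72.4 in MHM + GF at 3 days, 64.0 and 49.1 at 7 days, 27.4 and 23.6 in rcCHIL3 at 3 days, and 28.0 and 24.4 at 7 days. The 4 arrays in rcCHIL3 lay together at a low level, below the signal limit, whatever the day. The gene was thus tested only through its arrays in MHM + GF, and the sizes of its changes are uncertain. Hes1 was 3.06-fold lower in rcCHIL3 at 3 days (log2 change -1.11, SE 0.12, adjusted p = 1.4e-05) and 2.16-fold lower at 7 days (-0.72, SE 0.12, adjusted p = 0.0006).

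HES5 is the Notch target most used to mark NSCs. At its brightest probe set, 1456010_x_at, Hes5 gave 862.5 and 874.9 in MHM + GF at 3 days, 457.9 and 333.1 at 7 days, 921.5 and 1024.6 in rcCHIL3 at 3 days, and 105.5 and 98.9 at 7 days. The media lay near each other at 3 days, and rcCHIL3 at 7 days was by far the lowest group. The change in rcCHIL3 was 0.16 at 3 days (SE 0.12, adjusted p = 0.28), and at 7 days Hes5 was 3.87-fold lower (log2 change -1.75, SE 0.12, adjusted p = 6.9e-07).

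The second Hes5 probe set, 1423146_at, had the same order of groups. It gave 291.0 and 279.4 in MHM + GF at 3 days, 142.1 and 146.8 at 7 days, 300.3 and 309.8 in rcCHIL3 at 3 days, and 58.9 and 76 at 7 days. Here the change was 0.09 at 3 days (SE 0.09, adjusted p = 0.45), and the signal was 2.14-fold lower at 7 days (log2 change -0.92, SE 0.09, adjusted p = 2.1e-05). The suffix _x marks a probe set in which some probes can also match other transcripts, and the second probe set carries no such suffix. The study had named Hes5 from a cluster formed on these arrays, so its pattern is not independent evidence.

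HEY1 is a Hes-related repressor that also responds to BMP signaling. Hey1 gave 435.2 and 433.3 in MHM + GF at 3 days, 63.5 and 75.5 at 7 days, 527.1 and 510.2 in rcCHIL3 at 3 days, and 158.3 and 153.0 at 7 days. Day separated the arrays most, and at each day both arrays in rcCHIL3 were above both in MHM + GF. Hey1 was 2.24-fold higher in rcCHIL3 at 7 days (log2 change 0.98, SE 0.08, adjusted p = 3.4e-06). At 3 days it was 1.19-fold higher (0.25, SE 0.08, adjusted p = 0.024), and this call was lost without each of the 4 arrays of that day in turn (adjusted p = 0.069 to 0.12), with quantile normalization (0.062) and on the deposited scale (0.38). Hey1 thus changed in the direction opposite to Hes1 at both days and to Hes5 at 7 days.

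RBPJ is the DNA-binding protein through which all Notch receptors act. At its brightest probe set, 1454896_at, Rbpj gave 219.3 and 204.7 in MHM + GF at 3 days, 252.9 and 262.6 at 7 days, 285.7 and 248.5 in rcCHIL3 at 3 days, and 284.6 and 297.0 at 7 days. The groups differed little, with MHM + GF at 3 days the lowest. Rbpj was 1.26-fold higher in rcCHIL3 at 3 days (log2 change 0.31, SE 0.08, adjusted p = 0.0081), and the change at 7 days was 0.16 (SE 0.08, adjusted p = 0.12). The call at 3 days was lost without the second array of MHM + GF at 3 days (adjusted p = 0.057), without the first of rcCHIL3 at 3 days (0.096), on the deposited scale (0.18), in the methods' t-test (unadjusted p = 0.099) and with the mean of the 3 Rbpj probe sets (0.01, adjusted p = 0.95).

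The other Rbpj probe sets gave a different picture. At 1448957_at the signals ran from 66.7 to 94.7 over the 8 arrays, and the changes in rcCHIL3 were -0.17 at 3 days (SE 0.11, adjusted p = 0.2) and -0.01 at 7 days (SE 0.11, adjusted p = 0.94). At 1418114_at they ran from 33.5 to 52.5, with a change of -0.12 at 3 days (SE 0.10, adjusted p = 0.35) and a 1.55-fold higher signal in rcCHIL3 at 7 days (log2 change 0.43, SE 0.10, adjusted p = 0.0048). No direction in rcCHIL3 was shared by the 3 Rbpj probe sets at either day.

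From 3 to 7 days in MHM + GF, Hey1, Dll3, Hes5, Notch3, Jag1, Dll1 and Hes1 fell and Notch2 rose, each at its brightest probe set. Of the 14 Notch probe sets, 13 passed the threshold, 3 higher and 10 lower at 7 days, beside 57.1% of all tested probe sets, 31.1% higher and 26.0% lower. By gene, at its brightest probe set, it was 10 of 10, 3 higher and 7 lower. The median log2 change was -0.70 against 0.04 over all tested probe sets. With the mean of a gene's probe sets it was 8 of 10, 1 higher and 7 lower, and Notch1 and Rbpj did not pass. The comparisons over time use the same arrays as those between the media and are not independent of them.

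Hey1 fell 6.25-fold in MHM + GF (log2 change -2.35, SE 0.08, adjusted p = 1.5e-09). Dll3 fell 4.23-fold (-1.92, SE 0.08, adjusted p = 5.6e-09). Hes5 fell 2.2-fold at 1456010_x_at (-1.11, SE 0.12, adjusted p = 9.4e-06) and 1.98-fold at 1423146_at (-0.89, SE 0.09, adjusted p = 1.1e-05). The genes with the steepest falls were thus a target, a ligand and another target. Notch3 fell 2.14-fold (-1.02, SE 0.07, adjusted p = 6e-07), Jag1 2.06-fold (-0.84, SE 0.12, adjusted p = 9.4e-05) and Dll1 1.5-fold (-0.56, SE 0.07, adjusted p = 2.9e-05). Hes1 fell 1.38-fold (-0.36, SE 0.12, adjusted p = 0.022), a call lost without the first array of MHM + GF at 3 days (0.14), without the second at 7 days (0.19) and in the methods' t-test (unadjusted p = 0.16). Notch2 rose 2.92-fold (1.33, SE 0.13, adjusted p = 7.8e-06).

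Notch1 and Rbpj had probe sets that moved in opposite directions over this time. Notch1 rose at 1418634_at (log2 change 0.40, SE 0.08, adjusted p = 0.0014) and fell at 1418633_at (-0.66, SE 0.12, adjusted p = 0.00058), and their mean gave -0.13 (adjusted p = 0.18). Rbpj rose at 1454896_at (0.26, SE 0.08, adjusted p = 0.017), fell at 1418114_at (-0.30, SE 0.10, adjusted p = 0.024) and changed by 0.12 at 1448957_at (SE 0.11, adjusted p = 0.35). The Rbpj calls were lost in several alternatives, and the mean of its 3 probe sets gave 0.03 (adjusted p = 0.76). No direction over time is given for these genes.

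In rcCHIL3, Hes5, Hey1, Dll3 and Notch3 fell from 3 to 7 days and Notch2 rose. Of the 14 Notch probe sets, 7 passed, 1 higher and 6 lower at 7 days, beside 35.8% of all tested probe sets, 18.0% higher and 17.9% lower. By gene this was 5 of 10, 1 higher and 4 lower, with a median log2 change of -0.11 against -0.0012 over all tested probe sets. Hes5 fell 9.52-fold at 1456010_x_at (-3.02, SE 0.12, adjusted p = 3.1e-08) and 4.52-fold at 1423146_at (-1.90, SE 0.09, adjusted p = 1.4e-07). Hey1 fell 3.33-fold (-1.62, SE 0.08, adjusted p = 1.4e-07), Dll3 3.07-fold (-1.33, SE 0.08, adjusted p = 4.4e-07) and Notch3 1.44-fold (-0.47, SE 0.07, adjusted p = 0.00059). Notch2 rose 1.69-fold (0.67, SE 0.13, adjusted p = 0.0026). The ligands Dll1 and Jag1 and the target Hes1, already low at 3 days, had changes of 0.15 (SE 0.07, adjusted p = 0.11), -0.05 (SE 0.12, adjusted p = 0.76) and 0.02 (SE 0.12, adjusted p = 0.9). Notch1 changed by -0.17 at 1418634_at (SE 0.08, adjusted p = 0.12) and fell at 1418633_at (-0.37, SE 0.12, adjusted p = 0.029), a call lost without each of the arrays of rcCHIL3 at 3 days (0.13 and 0.089) and without the second at 7 days (0.15).

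**Figure D3:**
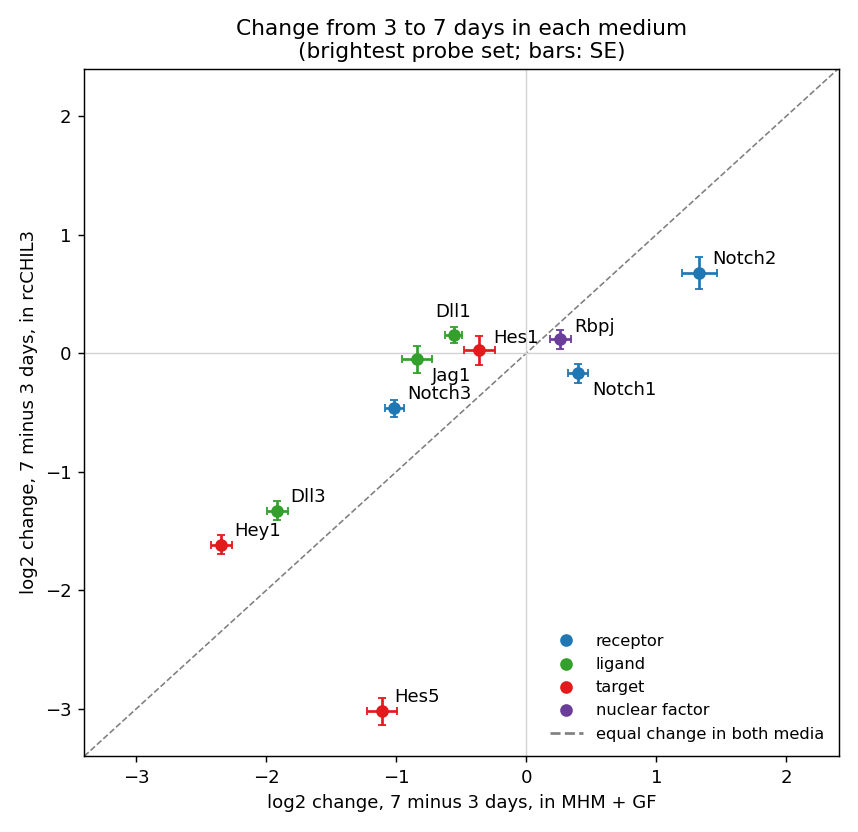
log2 change from 3 to 7 days in MHM + GF (x axis) and in rcCHIL3 (y axis) for the 10 genes at the brightest probe set, with bars of 1 SE and colors for the role of each gene. The dashed line marks equal change in both media. Hes5 lies far below the line (-1.11 and -3.02), while Hey1, Dll3, Notch3, Jag1 and Dll1 lie above it.

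Whether these time courses differed, or equally whether the effect of rcCHIL3 at 7 days differed from that at 3 days, was tested as an interaction. It passed the threshold at 10 of 14 Notch probe sets, 6 positive and 4 negative, beside 41.4% of all tested probe sets, 18.7% positive and 22.7% negative. For the ligands it was positive, that is, they were lower in rcCHIL3 by more at 3 days than at 7 days, with 0.71 for Dll1 (SE 0.09, adjusted p = 0.00014), 0.79 for Jag1 (SE 0.16, adjusted p = 0.0028) and 0.59 for Dll3 (SE 0.11, adjusted p = 0.0016). Notch3 followed the ligands (0.55, SE 0.11, adjusted p = 0.0017). For Hes1 the difference of 0.39 did not pass (SE 0.17, adjusted p = 0.089). Hey1 was higher in rcCHIL3 by more at 7 days than at 3 days (0.73, SE 0.11, adjusted p = 0.00039). Hes5 had the opposite sign, with -1.91 (SE 0.16, adjusted p = 5e-06) and -1.01 (SE 0.13, adjusted p = 0.00013) at its 2 probe sets. Notch1 also gave a negative difference at 1418634_at (-0.57, SE 0.11, adjusted p = 0.0021), which the mean of its probe sets did not keep (-0.14, adjusted p = 0.33). Notch2 gave -0.66 (SE 0.19, adjusted p = 0.017), a call lost without each of 3 arrays in turn (0.051 to 0.057). Rbpj gave a positive difference at 1418114_at (0.54, SE 0.14, adjusted p = 0.0091) and did not pass at its other probe sets (-0.14, adjusted p = 0.34, and 0.16, adjusted p = 0.42).

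Among the other genes of the pathway, 48 of 79 listed genes were tested, and Ccnd1, Neurl1b, Hes6 and Nrarp had the largest differences at 3 days. In rcCHIL3, 12 of these were higher and 13 lower at 3 days (median log2 change 0.03). Counts at 7 days were 6 higher and 12 lower (median -0.10). The shares of all tested probe sets were 27.7% and 22.5% at 3 days and 21.3% and 22.7% at 7 days. The same shares stand beside the counts by role that follow, each of which is of few genes. A further 24 genes missed the signal limit, among them the receptor Notch4 and the ligands Dll4 and Jag2, and 7 had no probe set annotated with that gene alone and were not analysed here.

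Genes that handle ligands and receptors at the membrane moved in both directions. Mfng, which adds sugars to Notch receptors and so tunes their response to ligands, had mean signals of 95.1 and 60.1 in MHM + GF and rcCHIL3 at 3 days and of 62.1 and 16.3 at 7 days. It was lower in rcCHIL3 at 3 days (log2 change -0.52, SE 0.09, adjusted p = 0.0007) and at 7 days (-1.18, SE 0.09, adjusted p = 2.7e-06). In rcCHIL3 at 7 days Mfng was under the signal limit, so the size of its change at that day is uncertain. Neurl1b, a ubiquitin ligase that promotes the uptake of ligands, was lower at 3 days (-1.40, SE 0.13, adjusted p = 3.3e-06), with -0.31 at 7 days (SE 0.13, adjusted p = 0.067). Its mean signals were 94.2 and 23.3 in MHM + GF and rcCHIL3 at 3 days and 26.1 and 17.4 at 7 days. Only MHM + GF at 3 days was over the signal limit, so the size of the Neurl1b change is uncertain. Epn2, an endocytic adaptor, was lower at 3 days (-0.35, SE 0.12, adjusted p = 0.034) and higher at 7 days (0.82, SE 0.12, adjusted p = 0.00027). The ligand-like Dner was lower at both days (-0.34 and -0.59), and the ligand-like Cntn1 was higher at 7 days (0.61, SE 0.08, adjusted p = 0.00012). Of 5 tested glycosylation genes 1 was lower at each day, and of 5 ligand endocytosis genes 2 were lower at 3 days and 1 higher at 7 days.

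Of 7 tested genes of the receptor-cutting proteases, 4 were higher at 3 days and 2 at 7 days, and the others did not pass the test. Over all tested probe sets 27.7% were higher and 22.5% lower at 3 days, and 21.3% were higher and 22.7% lower at 7 days. Psen2, a catalytic subunit of γ-secretase, was higher at 3 days (log2 change 0.64, SE 0.09, adjusted p = 0.00013) and at 7 days (0.54, SE 0.09, adjusted p = 0.0007). Its partner Aph1a was higher at 3 days (0.39, SE 0.12, adjusted p = 0.015), and Aph1b at 7 days (0.41, SE 0.09, adjusted p = 0.0038). Of 5 tested genes of the nuclear activating complex, 3 were higher at 3 days, namely the acetyltransferases Kat2b (0.44) and Kat2a (0.25) and the coactivator Maml1 (0.32), and 1 at 7 days, Kat2b (0.33). Of 9 tested corepressor genes 4 were lower at each day, and the others did not pass. Ctbp2 was lower at 3 days (-0.26, SE 0.06, adjusted p = 0.0039) and at 7 days (-0.59, SE 0.06, adjusted p = 2.1e-05), Tle3 likewise (-0.45 and -0.43), and Tle4 was lower at 3 days (-0.52, SE 0.10, adjusted p = 0.0011).

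Nrarp, a target that feeds back on the nuclear complex, had mean signals of 394 and 184 in MHM + GF and rcCHIL3 at 3 days and of 130 and 149 at 7 days. It was lower in rcCHIL3 at 3 days (log2 change -1.02, SE 0.08, adjusted p = 8.7e-07), with 0.17 at 7 days (SE 0.08, adjusted p = 0.1). The ubiquitin ligase gene Dtx3 was higher at 3 days (0.79, SE 0.11, adjusted p = 0.00015) and lower at 7 days (-0.61, SE 0.11, adjusted p = 0.0013). Fbxw7, which marks the intracellular part of Notch for degradation, was lower at 3 days (-0.55, SE 0.10, adjusted p = 0.00083), with -0.26 at 7 days (SE 0.10, adjusted p = 0.055). Altogether 2 of 8 tested inhibitors and turnover genes were higher and 3 lower at 3 days, and 3 were lower at 7 days.

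Of 6 tested genes among the other Hes, Hey and target genes, 3 were higher and 2 lower at 3 days, and 1 was higher and 2 lower at 7 days. Hes6, which counteracts HES1, gave mean signals of 510 and 213 in MHM + GF and rcCHIL3 at 3 days and of 450 and 249 at 7 days. Like Hes1 it was lower in rcCHIL3 at 3 days (log2 change -1.19, SE 0.07, adjusted p = 1.3e-07) and at 7 days (-0.81, SE 0.07, adjusted p = 7.1e-06). Ccnd1, a cyclin of the G1 phase that growth factors also induce, gave 866 and 131 at 3 days and 133 and 86 at 7 days, and was lower at both days (-2.56, SE 0.07, adjusted p = 6.7e-10, and -0.53, SE 0.07, adjusted p = 0.00015). Id3, a helix-loop-helix inhibitor that BMP signaling also induces, was higher at both days (0.70, SE 0.07, adjusted p = 4.9e-06, and 0.78, SE 0.07, adjusted p = 4.7e-06). Olig2, a helix-loop-helix factor of the oligodendrocyte lineage, was lower at 7 days (-0.96, SE 0.09, adjusted p = 8.4e-06).

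**Figure D4:**
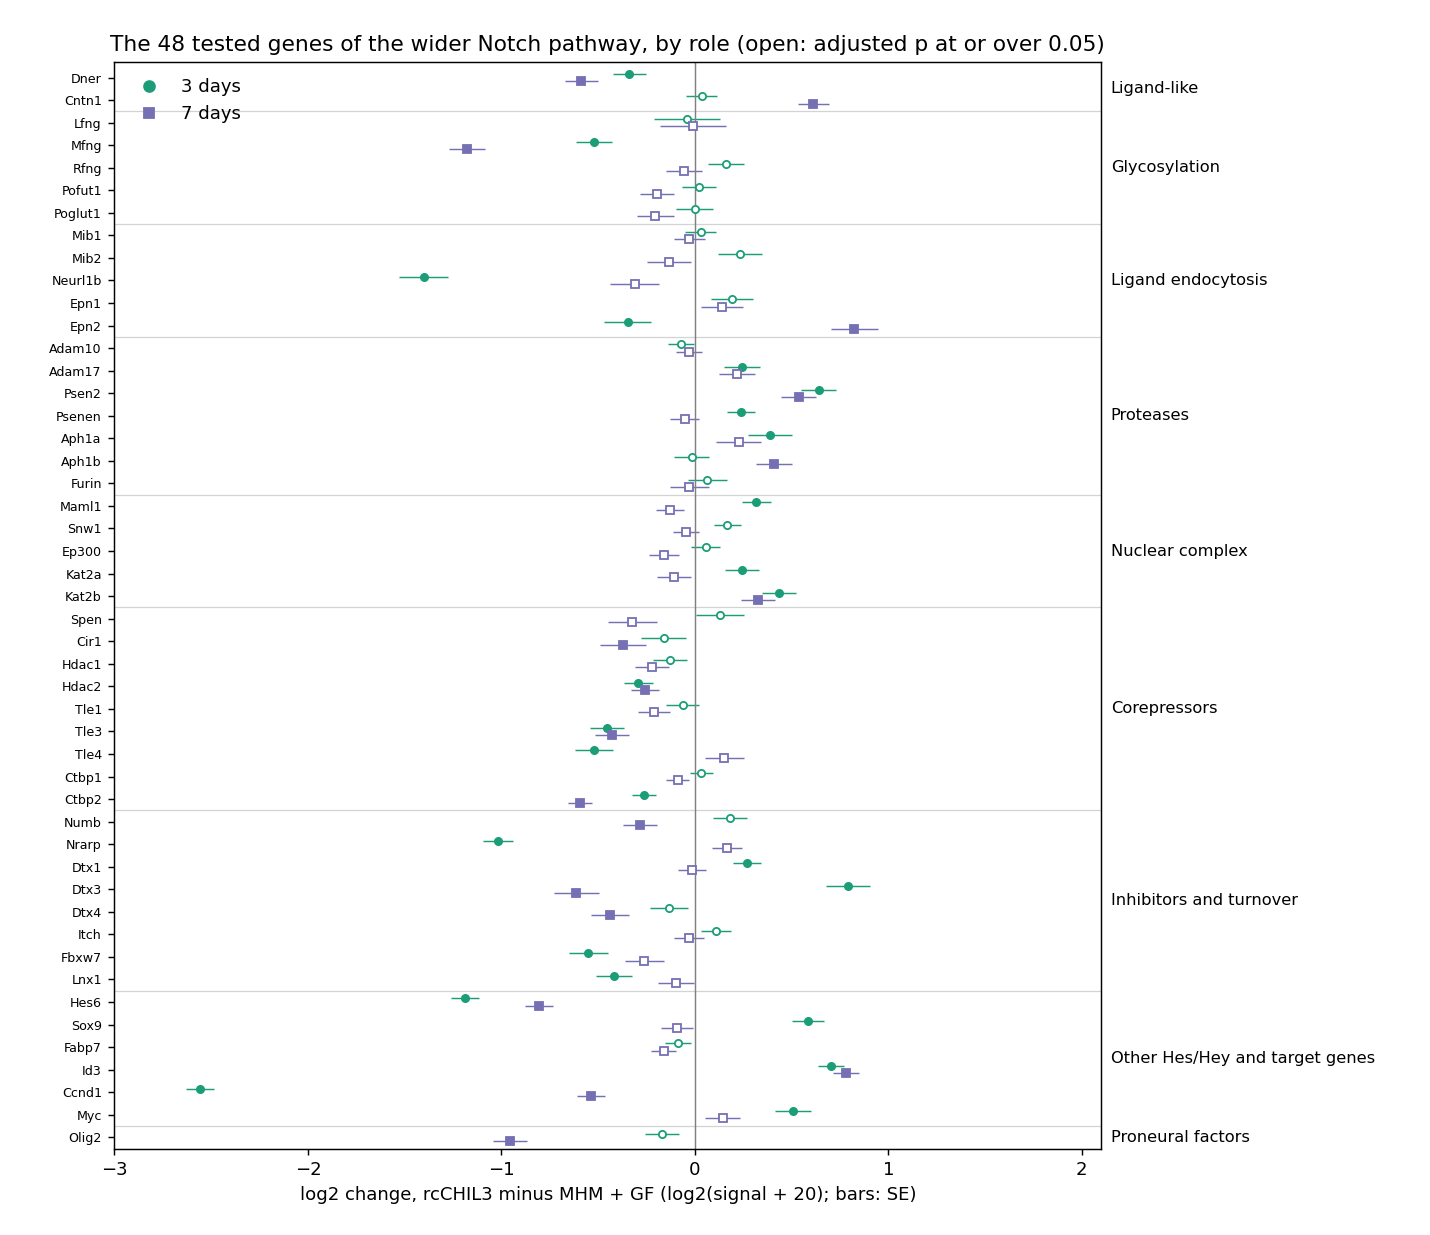
log2 change between rcCHIL3 and MHM + GF (x axis, on log2(signal + 20)) for the 48 tested genes of the wider pathway (y axis), grouped by role, at 3 days (green circles) and 7 days (purple squares). Bars are 1 SE and filled symbols have an adjusted p under 0.05. Ccnd1 at 3 days lies farthest left (-2.56), and no filled symbol of the proteases or the nuclear complex lies left of 0.

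Markers of cell types varied between the groups. The neural stem and progenitor markers Nes, Sox2, Fabp7, Vim, Prom1 and Slc1a3 were all 6 over the signal limit, with summed signals of 9284.4 to 9769.6 in MHM + GF at 3 days, 9108.3 to 9169.4 at 7 days, 7413.3 to 7761.9 in rcCHIL3 at 3 days and 8358.9 to 8469.9 at 7 days. All 5 astrocyte markers (Gfap, Aqp4, Aldh1l1, S100b and Aldoc) were over it, with 3510.1 to 3631.4, 5657.5 to 5929.7, 4828.7 to 5009.4 and 6084.2 to 6378.3 in the same order. The astrocyte markers did not move together. Gfap (mean signals 52, 1140, 910 and 1550), Aqp4 and S100b were higher in rcCHIL3 at 3 days (log2 changes 3.69, 1.41 and 1.49), and Aldh1l1 (998, 652, 409 and 440) and Aldoc were lower (-1.24 and -0.42). Among the stem and progenitor markers, Nes, Vim, Slc1a3 and Sox2 were also lower there (-2.19, -0.77, -0.38 and -0.17). Prom1 was higher there (0.46), and Fabp7 did not pass the test (-0.09). Nes had mean signals of 187, 29.9, 25.2 and 13.8, over the signal limit only in MHM + GF at 3 days. Of the ependymal markers Foxj1, Rsph1, Ccdc153 and Tmem212, 2 of 4 were over the limit, with sums of 75.8 to 87.5, 170.6 to 203.9, 133.8 to 137.8 and 409.1 to 421.4. The ependymal, astrocyte and myelin sums were highest in rcCHIL3 at 7 days, and the neuron, oligodendrocyte progenitor and mural sums were lowest there. The members of these lists were not uniform. Of the 5 astrocyte markers, 2 were higher in rcCHIL3 than in MHM + GF at 7 days (Gfap and S100b). Aldh1l1 was lower, and Aqp4 and Aldoc did not pass the test. Of the 3 tested myelin genes, 1 was higher at 7 days (Mag). Mobp and Mbp, which made up most of the myelin sum, did not pass. Of 5 neuroblast and neuron markers (Dcx, Tubb3, Stmn2, Map2 and Rbfox3) 4 were over the limit, with sums of 1296.9 to 1342.1, 1804.2 to 1838.1, 1429.4 to 1446.0 and 1114.4 to 1243.5. Most of that sum was Map2, which was lower in rcCHIL3 at both days (-0.23 and -0.49). Dcx (mean signals 74.4, 223, 220 and 67.2) and Tubb3 (22.2, 98.2, 60.9 and 18.4) were higher in rcCHIL3 at 3 days (1.34 and 0.94) and lower at 7 days (-1.48 and -1.61), and Stmn2 was higher at 3 days (1.88). Of the myelin genes Mbp, Mag, Mobp and Mog, 3 of 4 were over the limit, with sums of 1499.9 to 1520.3, 2912.1 to 2987.5, 2773.2 to 2811.9 and 3164.0 to 3346.3. The part of these cell types in the Notch values was not tested. The 6 endothelial markers (Cdh5, Pecam1, Tek, Kdr, Flt1 and Cldn5) and the 5 microglial markers (Aif1, Csf1r, Cx3cr1, Itgam and P2ry12) were all under the limit in every group, with sums of 15.7 to 51.7 and 16.6 to 45.1.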

How the data were processed

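Total RNA (100 ng) from 2 independent experiments for each of 4 groups was labeled and hybridized to 8 Affymetrix arrays of the mouse genome. The authors deposited signal intensities on a linear scale, made with the MAS5 algorithm and global scaling (Affymetrix Expression Console 1.1 per the submitters' processing notes). The deposited averages were 267.3 to 316.6, so each array was rescaled to 100. After removal of 64 control probe sets, log2(signal + 20) was modeled in R 4.3.3 by limma 3.58.1, using 4 group means and eBayes with a mean-variance trend. The fit left 4 residual degrees of freedom, and two-sided p-values were adjusted by Benjamini-Hochberg over 15679 probe sets. P-values rest on 2 arrays a group and the spread shared by all groups, and the number of arrays limits the precision. On each array 30.1% to 31.5% of probe sets reached the limit of 50. Those under the limit were taken from a fit without it. Genes were named from the 34958 probe sets that carry 1 gene symbol (9211 carry none and 932 several). The methods name a 2-tailed Student t test, which was run as an alternative, called the methods' t-test. Other alternatives were the offset, the signal limit, the scaling, the arrays in the fit, the variance model, the replicate number as a block, the mean of a gene's probe sets and each array left out in turn. Arrays with the same replicate number in the labels shared little of their deviation from the group mean (correlation of deviations -0.011 to 0.102). Whether the numbers stand for paired experiments cannot be told from these values. The scripts were tested on simulated data. The genes, lists and the rule for the genes named (all 10 genes; up to 3 genes of each role of the wider list with the largest change among those past the threshold in rcCHIL3 against MHM + GF; for Notch1, Dll1 and Hes5 the 5 genes most like each) were chosen with earlier results of these data known. Promoters and figures used Python 3.11.15 with matplotlib 3.10.9, numpy 2.4.6 and pandas 2.3.3.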

Additional observations from a re-analysis of the deposited data

Results flagged for a closer look

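The effect of rcCHIL3 against MHM + GF differed between 3 and 7 days, by the interaction test in limma, at 10 Notch probe sets. The values are the log2 change at 7 days minus that at 3 days. They were positive for Dll1 (0.71), Dll3 (0.59), Jag1 (0.79) and Notch3 (0.55), which were lower in rcCHIL3 at both days and by less at 7 days. Hey1 (0.73) was higher in rcCHIL3 at both days and by more at 7 days, and its call at 3 days was lost in several alternatives. Rbpj was positive at its probe set 1418114_at (0.54). Values were negative for Hes5 at 1456010_x_at (-1.91) and 1423146_at (-1.01), for Notch1 at 1418634_at (-0.57) and for Notch2 (-0.66). Over all tested probe sets 41.4% passed this test.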

How the results depend on the processing

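Of 49 calls at the Notch probe sets over the 5 comparisons, 36 kept their call and sign in every alternative that gave a value. Among the values with an array left out, 526 kept direction and side of the threshold, 20 lost the call, 6 gained one and 8 changed sign. Among the other alternatives the numbers were 809, 22, 10 and 6. Probe sets past the threshold with 1 array left out numbered 7 to 9 at 3 days, 10 to 11 at 7 days, 10 to 13 over time in MHM + GF, 6 to 8 over time in rcCHIL3 and 9 to 12 for the difference between the days. With the replicate number as a block they were 9, 10, 13, 8 and 11, so that Hes1 passed for the difference (0.39, adjusted p = 0.044) and Rbpj at 1448957_at over time in rcCHIL3 (0.28, adjusted p = 0.049), and no other call changed.

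One called value changed sign. Notch1 over time in MHM + GF was -0.13 with the mean of its probe sets, which move in opposite directions. The other sign changes were in values not past the threshold, and their cause was not tested. On the deposited scale, which moved the median of all probe sets by 0.10 over time in rcCHIL3 and by 0.12 for the difference between the days, Rbpj gave 0.0785 at 7 days (1448957_at) and 0.0173 for the difference (1454896_at), and Jag1 0.0095 over time in rcCHIL3. The mean of its probe sets gave Rbpj 0.19 for the difference. Over time in rcCHIL3, Hes1 was -0.0026 with quantile normalization and -0.0368 to 0.0825 with 1 array left out, and Jag1 -0.2011 to 0.0949. At 7 days with 1 array left out, Notch1 (1418633_at) ran from -0.3318 to 0.0145, Notch2 from -0.377 to 0.134 and Rbpj (1448957_at) from -0.0939 to 0.0709. Rbpj over time in MHM + GF (1448957_at) ran from -1e-04 to 0.2418.

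The methods' t-test called 4 Notch genes at 3 days, 0 at 7 days, 4 over time in MHM + GF and 0 over time in rcCHIL3 after Benjamini-Hochberg adjustment over all probe sets, where it called 2434, 37, 2376 and 0 probe sets. Unadjusted, it called 7, 7, 9 and 5 Notch genes, and 6518, 5144, 6583 and 4857 probe sets. With a signal limit of 100, Hes1 was not tested. Signals under 50, as for Jag1 and Hes1 in rcCHIL3, lie under the signal limit, and no detection calls were used, so their folds are uncertain.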

Other observations

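Over the 8 arrays, which are 4 groups of 2, the genes whose log2 signals followed Dll1 most closely were 4930579G24Rik (Pearson r = 0.9967), Mest (0.9943), Col5a2 (0.9933), H1f2 (0.9919) and Mcm3 (0.9918). For Hes5 they were Rnf122 (0.9922), Stmn3 (0.989), Mprip (0.9863), Lpcat1 (0.9848) and Fchsd2 (0.9844), and for Notch1 Bptf (0.9853), Klf7 (0.9846), Abhd2 (0.982), Mbd1 (0.9803) and Sema4a (0.9799). Among the Notch genes themselves, Notch3 and Dll3 (0.987), Dll1 and Hes1 (0.976) and Dll1 and Jag1 (0.966) were most alike, Hes1 and Hey1 had r = -0.08, and Notch3 and Rbpj had r = -0.935. These values describe how alike the patterns over 4 groups were and carry no test.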
